A study of Mus musculus with 6 samples.

Results

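The miR-181 family was followed in small RNA libraries of mouse skeletal muscle taken after transverse aortic constriction (TAC) or a sham operation (Sham). Members were all rows of the deposited miRNA table whose name begins with miR-181a, miR-181b, miR-181c or miR-181d, guide and passenger arms alike, and the rule took no account of measured values. It gave 7 of 392 listed miRNAs, and all 7 were abundant enough to be tested. TAC narrows the aortic arch and overloads the left ventricle, which leads to cardiac hypertrophy and heart failure. The 3 TAC libraries and the 3 Sham libraries came from male C57BL6 mice aged 16 weeks on normal chow, with a treatment time of 8 weeks in each sample record and of 8 to 10 weeks in the protocol. The labels give the Sham libraries the treatment "Control", name no particular muscle, and do not say whether each library is 1 animal, so p-values measure the spread between these libraries only. Libraries held 2145221 to 2874724 miRNA UMIs (unique molecular identifiers, which count molecules before amplification) in TAC and 1179365 to 3440232 in Sham. All 7 muscle marker miRNAs looked for were listed. They summed to 60.2 to 61.6% of miRNA UMIs in TAC and 53.4 to 61.6% in Sham. In the edgeR test given below 2 of them, miR-206-3p and miR-208b-3p, fell in TAC and 5 did not pass. Of all tested miRNAs 15.8% fell. miR-208b-3p rests on 0, 0 and 2 UMIs in TAC and 132, 28 and 87 UMIs in Sham. Among the 5, miR-133a-3p and miR-133b-3p were higher in TAC without overlap of the groups (log2 fold change 0.63 and 0.80). miR-499-5p was lower without overlap (-3.30) and rests on 0, 0 and 15 UMIs in TAC. TAC 3 and Sham 3 deviated from their group means together (r = 0.59 across miRNAs), so values without them are given where they change a call.

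A miRNA hairpin yields a 5p and a 3p strand. The strand loaded into Argonaute guides it to messenger RNAs that pair with the seed, bases 2 to 8 of the miRNA, and the other strand is called the passenger. In miR-181 the 5p strand is the usual guide. The family is best known for setting the sensitivity of developing T cells to antigen. In muscle, miR-181 has been tied to myoblast differentiation through the homeobox repressor Hoxa11 and, in mice, miR-181a to mitochondrial turnover. In endothelium miR-181b restrains NF-kappaB signalling by repressing importin-alpha3, and in rat heart cells miR-181c enters mitochondria and represses mt-Co1, a subunit of cytochrome c oxidase.

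All 7 members matched a mature sequence in the RefSeq table (build GRCm38.p6). The guides are shown first, with the seed in capitals, because they share 1 seed and differ only outside it.
miR-181a-5p: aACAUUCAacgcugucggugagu
miR-181b-5p: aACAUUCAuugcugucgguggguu
miR-181c-5p: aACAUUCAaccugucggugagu
miR-181d-5p: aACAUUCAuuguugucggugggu
Counted from 1 at the 5′ end, miR-181b-5p and miR-181d-5p differ by a single substitution over their first 23 bases, C12U. miR-181a-5p and miR-181c-5p are 1 edit apart, the loss of a base. Reads of such near-identical guides can be exchanged by a single sequencing error, and no source used here gives the counting rules, so the values of the rare miR-181c-5p and miR-181d-5p carry that uncertainty.

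The passenger arms, again with bases 2 to 8 in capitals, fall into different seed groups. They are shown because, unlike the guides of miR-181a and miR-181b, they tell apart hairpins at different loci.
miR-181a-1-3p: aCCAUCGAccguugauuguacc
miR-181c-3p: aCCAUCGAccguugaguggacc
miR-181a-2-3p: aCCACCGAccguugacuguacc
miR-181b-2-3p: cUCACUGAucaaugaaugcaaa
miR-181a-1-3p and miR-181c-3p share a seed. miR-181a-2-3p differs from miR-181a-1-3p by U5C, inside the seed, and by U16C. miR-181a-2-3p was not a row of the miRNA table, and its sequence was found among the mappable sequences without annotation, as described below. miR-181b-1-3p and miR-181d-3p were not rows of the miRNA table either, and no sequence without annotation was listed for these arms.

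The hairpins lie in 3 pairs, in GRCm38 coordinates. Mir181a-1 (chromosome 1, 137966455 to 137966541) and Mir181b-1 (137966639 to 137966718) are 97 bases apart on the plus strand, within an intron of the noncoding gene Gm4258. Mir181b-1 also lies within the exon of the noncoding gene A430106G13Rik. Mir181a-2 (chromosome 2, 38852735 to 38852810) and Mir181b-2 (38853830 to 38853918) are 1019 bases apart on the plus strand, opposite an intron of Nr6a1, which encodes a germ cell nuclear receptor. Mir181d (chromosome 8, 84178716 to 84178787) and Mir181c (84178873 to 84178961) are 85 bases apart on the minus strand, within an intron of a long transcript of Nanos3, a germ cell gene. None of 8 host or overlapping genes looked for had a row in the mRNA or other-RNA tables used here. miR-181a-5p and miR-181b-5p are each made from hairpins on chromosomes 1 and 2, and their counts do not separate these loci, whereas miR-181c and miR-181d each have a single hairpin.

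A pair of guides carried most of the family in this muscle. Levels are given as CPM, UMIs per 1000000 miRNA UMIs after TMM scaling between libraries. miR-181a-5p had 2791, 2332 and 3100.2 CPM in TAC 1, 2 and 3 and 2333, 1813 and 2682 CPM in Sham 1, 2 and 3. miR-181b-5p had 1829, 1199.5 and 1684 CPM in TAC and 1234, 915 and 1363 CPM in Sham. The 2 guides made up 98.0% of the summed CPM of the 7 members, or 85.6 to 90.9% per library with miR-181a-2-3p counted in, and they ranked 39 and 50 by mean CPM among the 392 listed miRNAs.

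The guides of the chromosome 8 pair were far rarer, at 1.35% of the summed CPM of the members. miR-181d-5p had 22.6, 14.2 and 37.3 CPM in TAC and 43.9, 34.3 and 39.4 CPM in Sham. miR-181c-5p had 20.7, 10.8 and 20.4 CPM in TAC and 34.7, 22.7 and 19.0 CPM in Sham. The listed passenger arms were lower still. miR-181a-1-3p had 17.9, 14.2 and 9.44 CPM in TAC and 19.7, 18.4 and 13.4 CPM in Sham. miR-181b-2-3p had 5.07, 5.87 and 6.96 CPM in TAC and 9.9998, 4.79 and 9.14 CPM in Sham. miR-181c-3p, the rarest member, had 3.12, 3.91 and 2.48 CPM in TAC and 6.94, 6.78 and 5.62 CPM in Sham. It rests on 8, 8 and 5 UMIs in TAC and 25, 17 and 8 UMIs in Sham.

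In order of mean level, miR-181a-5p lay above miR-181b-5p in 6 of 6 libraries, 1.83-fold on average, and their ranges did not overlap within either group. Some neighbours lower down were less separate. miR-181a-1-3p lay above miR-181b-2-3p in 6 of 6 libraries, 2.22-fold on average and without overlap within either group. The ranges of miR-181d-5p and miR-181c-5p overlapped in both groups, as did those of miR-181c-5p and miR-181a-1-3p, although miR-181d-5p was above miR-181c-5p within each of the 6 libraries. Ligation efficiency differs between small RNA sequences, so differences in level between members are less certain than differences of a member between libraries. Mature miRNAs are of nearly equal length, so no length correction was made.

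**Figure D1:**
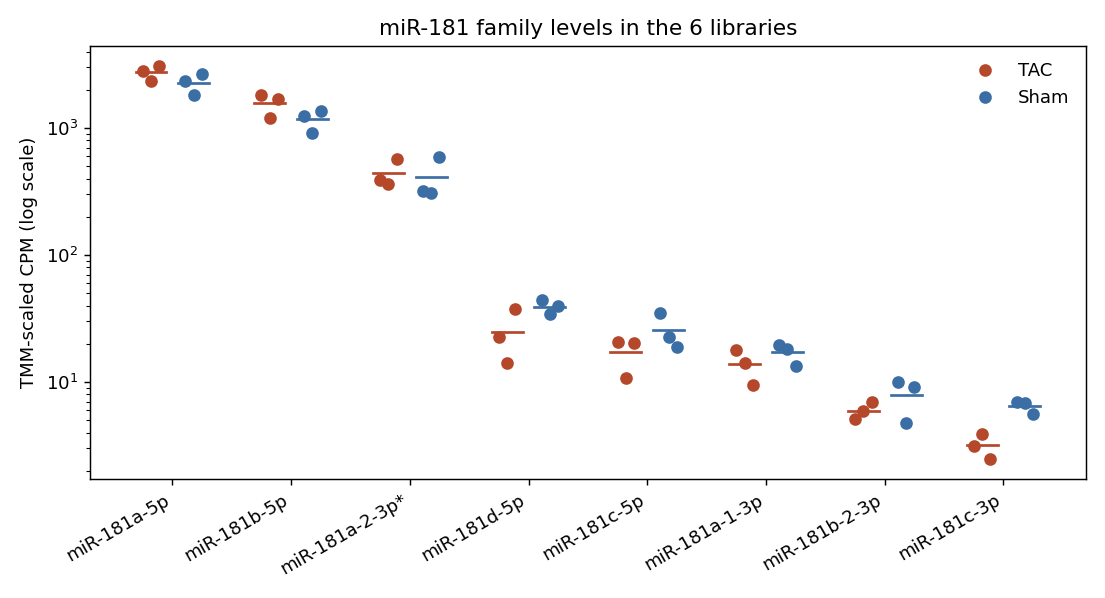
TMM-scaled CPM (log axis) of the 7 members and of miR-181a-2-3p, marked with an asterisk because its UMIs were summed from sequences without annotation. Points are libraries and lines are group means, with TAC to the left of Sham for each miRNA, and miR-181c-3p is the only member whose TAC libraries all lie below its Sham libraries.

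No member passed the test of TAC against Sham. With edgeR's quasi-likelihood test 0 of 7 members had an adjusted p under 0.05, while 71 of 322 tested miRNAs did, a background of 22%. The replicate block, with the library number as a term, gave 111 of 322 miRNAs and again 0 members. DESeq2 and limma-voom also called 0 members. At an unadjusted p under 0.05 edgeR had 1 member, miR-181c-3p, against a background of 33.2%. The median log2 fold change was -0.42 over the 7 members and 0.04 over all tested miRNAs, with 2 members above 0 and 5 below, where 51.2% of all tested miRNAs were above 0. The groups did not overlap for 1 member, with TAC below, and for 40.4% of all tested miRNAs, with TAC above for 18% and TAC below for 22.4%.

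The 2 abundant guides had higher means in TAC, and neither passed the test. miR-181a-5p averaged 2741 ± 387 CPM in TAC and 2276 ± 437 CPM in Sham (SD, n = 3 each), with a log2 fold change of 0.27 (SE 0.22). Its adjusted p was 0.404 by edgeR. miR-181b-5p averaged 1571 ± 330 CPM in TAC and 1171 ± 231 CPM in Sham, with a log2 fold change of 0.42 (SE 0.25) and an adjusted p of 0.259 by edgeR. For both guides the groups overlapped, TAC 2 being the lowest TAC library and Sham 3 the highest Sham library, while TAC was the higher in 3 of 3 same-numbered pairs. The labels do not give the numbers as pairs. Across miRNAs TAC 1 deviated more like Sham 2 (r = 0.39) than Sham 1 (r = 0.33), and TAC 2 more like Sham 1 (r = 0.34) than Sham 2 (r = 0.31). With the replicate block the adjusted p by edgeR was 0.0725 for miR-181b-5p and 0.175 for miR-181a-5p, both still short of the threshold. When only library sizes were used for scaling, the median over all tested miRNAs shifted by -0.28 and the log2 fold change of miR-181a-5p turned to -0.033. Relative to that median it was 0.23 with TMM factors and 0.21 with library sizes. As a share of all miRNA UMIs, free of any scaling, the 7 members held 0.418, 0.341 and 0.426% in TAC and 0.385, 0.299 and 0.498% in Sham, with Sham 3 the highest library and Sham 2 the lowest.

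The balance between the 2 guides was close in 5 of the 6 libraries. miR-181b-5p made up 39.6, 34.0 and 35.2% of their joint UMIs in TAC and 34.6, 33.5 and 33.7% in Sham. TAC 1 stood above the other libraries and the groups overlapped. The widest 95% Clopper-Pearson interval among these shares was 32.5 to 34.9%, in Sham 3. Intervals cover counting error only.

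The chromosome 8 members had lower means in TAC, none past the test. miR-181d-5p averaged 24.7 ± 11.7 CPM in TAC and 39.2 ± 4.79 CPM in Sham (SD, n = 3 each), with a log2 fold change of -0.67 (SE 0.37). Its adjusted p by edgeR was 0.230. TAC 3 lay within the range of Sham, and TAC was the lower in 3 of 3 same-numbered pairs, a pairing that the labels do not give. With the replicate block the adjusted p was 0.0797 by edgeR. Without both libraries numbered 3, miR-181d-5p had a log2 fold change of -1.08 and passed (adjusted p = 0.0273 by edgeR), and over 17 alternatives its adjusted p ranged from 0.0273 to 0.515. miR-181c-5p averaged 17.3 ± 5.64 CPM in TAC and 25.5 ± 8.22 CPM in Sham, a log2 fold change of -0.57 (SE 0.36, edgeR adjusted p = 0.294). Its groups overlapped, with Sham 3 the lowest Sham library. The log2 fold change of miR-181c-5p was -0.24 without Sham 1 and -0.30 without TAC 2.

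The passenger of the same hairpin, miR-181c-3p, had the largest difference among the members. It averaged 3.17 ± 0.716 CPM in TAC and 6.45 ± 0.721 CPM in Sham (SD, n = 3 each), a log2 fold change of -1.03 (SE 0.32). The adjusted p was 0.0553 by edgeR, just short of the threshold, 0.0562 with the replicate block and 0.238 by DESeq2. It was 0.0264 with library sizes only, where miR-181c-3p passed, as it also did at a threshold of 0.1. All 3 TAC libraries lay below all 3 Sham libraries, as they did for 22.4% of all tested miRNAs. The member rests on 21 UMIs over the TAC libraries and 50 over the Sham libraries.

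**Figure D2:**
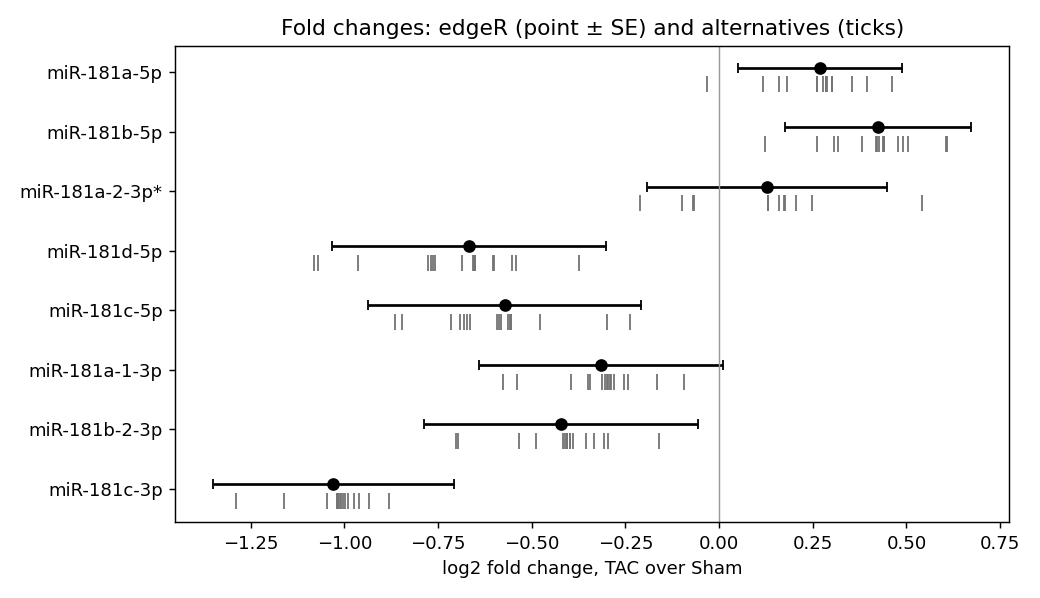
Log2 fold change of TAC over Sham for each member and for miR-181a-2-3p (asterisk, added as a further row of the same test). Points with bars are the edgeR values ± SE and ticks below them are the values under the alternatives, which stay below 0 for the 5 members miR-181d-5p, miR-181c-5p, miR-181a-1-3p, miR-181b-2-3p and miR-181c-3p and cross 0 for miR-181a-5p and miR-181a-2-3p.

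Set against the other guides of the same library, the chromosome 8 pair was lower in each TAC library than in any Sham library, a comparison that needs no scaling. miR-181c-5p and miR-181d-5p together held 0.929, 0.702 and 1.19% of the UMIs of the 4 guides in TAC and 2.16, 2.05 and 1.42% in Sham. The means were 0.940% ± 0.245 in TAC and 1.88% ± 0.397 in Sham (SD, n = 3 each). The groups did not overlap, and the libraries numbered 3 were the closest to each other. The exact two-sided permutation p was 0.1, the smallest possible here, and 0.6 adjusted over the 12 shares tested. This share was chosen after the values were seen, so its p is no independent support. The widest 95% Clopper-Pearson interval was 1.73 to 2.41%, in Sham 2. The summed CPM of the pair did overlap, at 43.3, 24.9 and 57.6 CPM in TAC and 78.6, 57.1 and 58.3 CPM in Sham. The 4 guides together, the denominator of the share, averaged 4354 ± 696 CPM in TAC and 3511 ± 670 CPM in Sham. On the CPM scale 40.4% of single tested miRNAs did not overlap. Between its 2 members the pair was balanced alike, with miR-181d-5p at 52.3, 56.9 and 64.7% of the joint UMIs in TAC and 55.8, 60.1 and 67.5% in Sham, where libraries numbered 3 were highest in both groups.

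**Figure D3:**
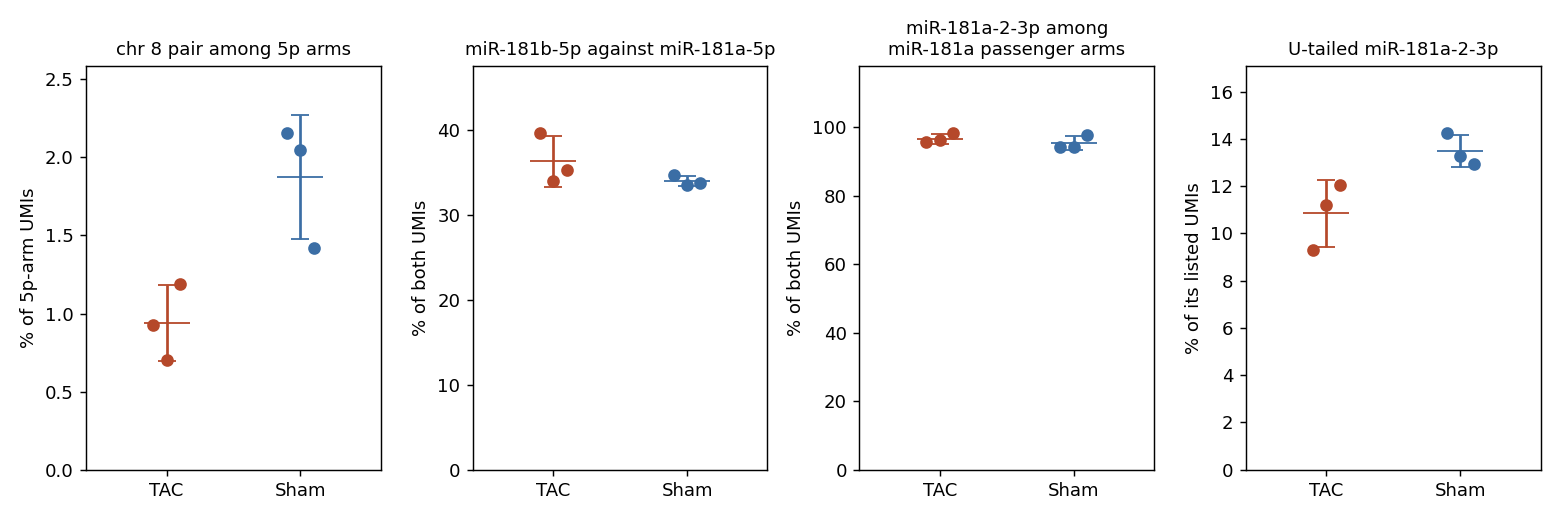
Shares that need no scaling between libraries, in percent of UMIs, with TAC left of Sham in each panel: the chromosome 8 guides among the 4 guides, miR-181b-5p of its sum with miR-181a-5p, miR-181a-2-3p of the 2 miR-181a passenger arms, and U-tailed sequences among those of miR-181a-2-3p. Points are libraries, lines and bars are means ± SD (n = 3), and the groups separate in the first panel (0.702 to 1.19% in TAC, 1.42 to 2.16% in Sham) and in the last.

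The most abundant passenger of the family stood outside the miRNA table. Of 1832 mappable sequences listed without annotation, 1 equals a RefSeq mature miRNA exactly, and it is miR-181a-2-3p (chromosome 2, 38852785 to 38852806, plus strand). In the Mir181a-2 hairpin it forms the second of the arms shown in capitals, the first being miR-181a-5p.
Mir181a-2: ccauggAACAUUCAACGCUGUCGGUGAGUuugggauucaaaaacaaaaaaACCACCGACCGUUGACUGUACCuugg
Together with its 12 shortened, extended or altered forms, miR-181a-2-3p had 1001, 740 and 1138 UMIs in TAC and 1158, 775 and 843 UMIs in Sham. Only sequences that reached 10 UMIs in some library are listed, so the sums are lower bounds. On the CPM scale of the miRNAs these are 391, 362 and 565 CPM in TAC and 322, 309 and 593 CPM in Sham, between miR-181b-5p and miR-181d-5p in 6 of 6 libraries. Added to the miRNA table, it had a log2 fold change of 0.13 (SE 0.32, edgeR adjusted p = 0.788). TAC 3 and Sham 3 were the highest library of their groups. Without Sham 3 the log2 fold change of miR-181a-2-3p was 0.54 (adjusted p = 0.193 by edgeR), and it was below 0 without TAC 3, Sham 1 or Sham 2 and with library sizes only.

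The share of passenger arms in the family depends on this sequence. Within the miRNA table, 3p arms were 0.557, 0.669 and 0.388% of miR-181 UMIs in TAC and 0.996, 1.06 and 0.681% in Sham. The difference of -0.375 percentage points had an exact two-sided permutation p of 0.1, the smallest that 3 against 3 libraries allow, or 0.6 adjusted over 12 shares, and TAC 2 and Sham 3 nearly met. With reads in place of UMIs the exact permutation p was 0.2, and with each hairpin weighted equally the difference was -1.49 points with p = 0.4. With miR-181a-2-3p counted in, 3p arms were 8.20, 9.79 and 10.8% in TAC and 8.95, 10.9 and 13.1% in Sham, the groups overlapped and the exact permutation p was 0.4 (0.84 adjusted). For miR-181a alone, its 2 passenger arms made up 12.8, 13.9 and 15.6% of all miR-181a UMIs in TAC and 12.8, 15.3 and 18.4% in Sham.

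The passenger arms also place most of the passenger signal at the chromosome 2 locus. Of the 2 miR-181a passenger arms, miR-181a-2-3p held 95.6, 96.2 and 98.4% of UMIs in TAC and 94.2, 94.4 and 97.8% in Sham. With miR-181b-2-3p added to the chromosome 2 side, the share averaged 96.8% ± 1.42 in TAC and 95.6% ± 1.96 in Sham (SD, n = 3 each; exact permutation p = 0.5, adjusted 0.84). Its chromosome 1 counterpart, miR-181b-1-3p, had no row, so this addition can only raise the chromosome 2 share. Over 21 compared bases these arms differ only by A9U. The libraries numbered 3 were highest in both groups. The widest 95% Clopper-Pearson interval was 92.7 to 95.9%, in Sham 2. Passenger arms differ in stability and in ligation, so the share is one of passenger molecules and does not give the share of each hairpin in the miR-181a-5p counts.

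The sequences of miR-181a-2-3p varied at their ends, and the forms are shown because they make up the counts above, with tails, added bases or altered bases in capitals.
RefSeq form: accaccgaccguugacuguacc
Shorter by 1 base: accaccgaccguugacuguac
U in place of the last C: accaccgaccguugacuguacU
U after loss of 2 bases: accaccgaccguugacuguaU
Start 1 base upstream: Aaccaccgaccguugacuguac
First base altered: Cccaccgaccguugacuguacc
The RefSeq form held 39.7% and the form shorter by 1 base 37.0% of the 5655 UMIs over all libraries. The form that starts 1 base upstream held 2.33%, and in it the seed is shifted by a base. The form with A1C, counted from the first base, held 1.29%, and TAC 3 had 29 of its 73 UMIs.

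Forms that end in U bases not encoded in the hairpin, which uridylating enzymes can add to small RNAs, had a lower mean share in TAC. The 3 listed U-tailed forms held 9.29, 11.2 and 12.04% of miR-181a-2-3p UMIs in TAC and 14.2, 13.3 and 12.9% in Sham. The means were 10.8% ± 1.41 in TAC and 13.5% ± 0.682 in Sham (SD, n = 3 each). The groups did not overlap, but TAC 3 and Sham 3 differed by less than the counting error, with 95% Clopper-Pearson intervals of 10.2 to 14.1% in TAC 3 and 10.7 to 15.4% in Sham 3. This share was chosen after the values were seen and was not tested. Forms with a shortened 3′ end held 41.7% ± 1.25 in TAC and 38.9% ± 2.48 in Sham, with overlapping groups, and the RefSeq form 39.5% ± 3.62 in TAC and 40.3% ± 2.59 in Sham.

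**Figure D4:**
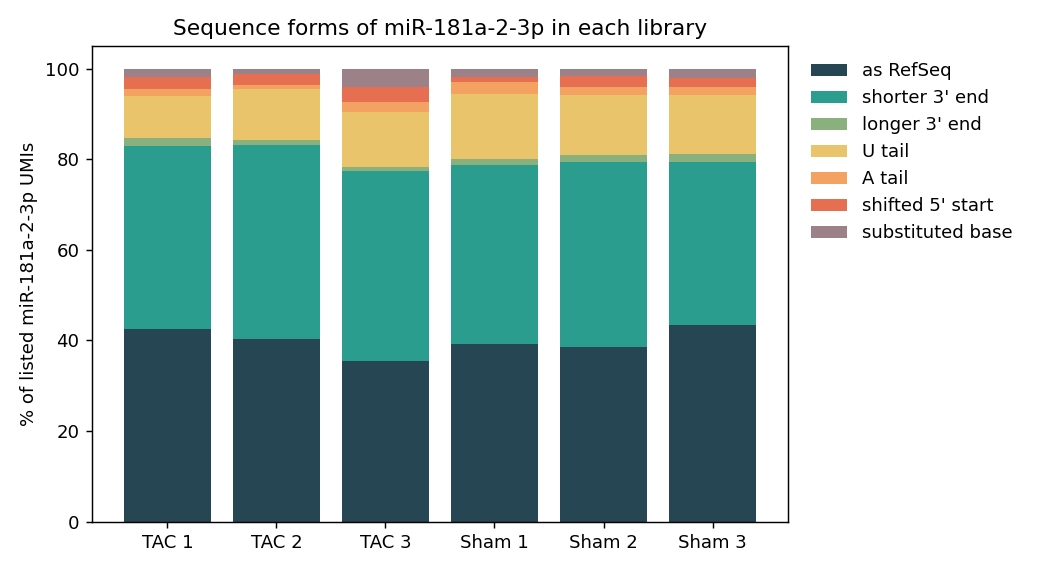
Sequence forms of miR-181a-2-3p as a percentage of its listed UMIs in each library, TAC libraries to the left of Sham libraries. The RefSeq form and shorter 3′ ends fill most of every bar, and the U-tailed part is 9.29 to 12.04% in TAC and 12.9 to 14.2% in Sham.

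Not all members varied together across the 6 libraries. On log2 CPM, Pearson's r was 0.94 between miR-181a-5p and miR-181b-5p, which share both of their loci, and 0.83 between miR-181c-5p and miR-181d-5p. Between the pairs it was -0.09 for miR-181a-5p with miR-181c-5p and 0.04 for miR-181a-5p with miR-181d-5p. miR-181a-5p and miR-181a-1-3p, its rarer passenger, had r = -0.65. No r was computed for miR-181a-2-3p, the far more abundant passenger of miR-181a. These values describe 6 libraries that share the scaling factors.

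Of 315 other tested miRNAs, 7 (2.22%) had r above 0.9 with the summed CPM of the 4 guides over the 6 libraries. The 5 most alike were miR-196a-5p (r = 0.97), miR-99a-5p (0.95), miR-30e-3p (0.94), let-7i-5p (0.93) and miR-7068-3p (0.92), and none of these 5 passed the test of TAC against Sham. The least alike was miR-23a-3p (r = -0.96), with 2468 ± 202 CPM in TAC and 2825 ± 192 CPM in Sham (SD, n = 3 each). Guides summed to 4663, 3557 and 4842 CPM in TAC and 3646, 2784 and 4103 CPM in Sham, so this order follows differences among single libraries as much as between the groups.

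Each of 3 lists of other miRNAs that act in the same processes held 1 to 3 called miRNAs, against a background of 22% called among all tested miRNAs. Of 16 other miRNAs tied to myoblast differentiation, 2 rose, 1 fell and 13 did not pass, with a median log2 fold change of 0.16. miR-26a-5p, which represses the methyltransferase Ezh2, averaged 43241 ± 5092 CPM in TAC and 29387 ± 396 CPM in Sham (edgeR adjusted p = 0.0345). miR-29b-3p, which targets collagens, averaged 727 ± 242 CPM in TAC and 178 ± 29.4 CPM in Sham (edgeR adjusted p = 0.00726). The muscle miRNA miR-206-3p fell, with 1170, 3418 and 2623 CPM in TAC and 9513, 4699 and 23027 CPM in Sham (edgeR adjusted p = 0.0342). Sham 3 was far above the other Sham libraries for miR-206-3p. Of 8 endothelial inflammation miRNAs, miR-31-5p, known to repress E-selectin, fell and 7 did not pass (median -0.15). Its level was 2.003 ± 0.848 CPM in TAC and 6.60 ± 1.24 CPM in Sham, with a log2 fold change of -1.68 (SE 0.40, edgeR adjusted p = 0.0250). miR-31-5p rests on 4, 3 and 6 UMIs in TAC and 19, 17 and 11 UMIs in Sham. Of 11 tested mitochondria-acting miRNAs, miR-26a-5p rose, miR-494-3p fell and 9 did not pass (median -0.09). miR-494-3p had 2.88 ± 0.488 CPM in TAC and 10.7 ± 1.34 CPM in Sham, a log2 fold change of -1.89 (SE 0.31, edgeR adjusted p = 0.00776). It rests on 7, 7 and 5 UMIs in TAC and 42, 28 and 13 UMIs in Sham. The background of calls over all tested miRNAs was 6.21% higher and 15.8% lower.

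Of 12 reported miR-181 targets looked for among mRNA fragments, 1 had a row, mt-Co1. Its fragments numbered 2861, 1109 and 2146 UMIs in TAC and 5097, 2093 and 1642 UMIs in Sham. Scaled within the mRNA fragments the groups overlapped, with a log2 fold change of -0.027 (SE 0.20, edgeR adjusted p = 0.940), where 8.16% of 49 tested mRNAs passed. Fragments in small RNA libraries are not a measure of intact mRNA.

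miR-181 is also made by lymphocytes and endothelial cells, and in whole muscle fewer cells of a type and less RNA per cell cannot be told apart. The 8 immune marker miRNAs summed to 1817 to 1846 CPM in TAC and 1846 to 2472 CPM in Sham, and none passed the test. As a share of miRNA UMIs they held 0.161 to 0.173% in TAC and 0.193 to 0.262% in Sham, without overlap. Among all tested miRNAs 40.4% did not overlap on the CPM scale, 22.4% with TAC below. This share takes no scaling factor, and with library sizes only the median log2 fold change of all tested miRNAs was -0.24. Of the 8 markers, miR-142a-3p and miR-146b-5p had higher means in TAC and the others lower means. The 2 endothelial markers summed to 35444 to 37708 CPM in TAC and 26493 to 40866 CPM in Sham, and neither passed. Of the fibroblast, smooth muscle, neural and erythroid markers none of those tested passed. The sum of 4 fibroblast markers, mostly miR-21a-5p, was 9266 to 11818 CPM in TAC and 3841 to 8829 CPM in Sham. The markers did not move together. miR-214-3p was lower in all TAC libraries, with 28.5 ± 5.43 CPM in TAC and 43.2 ± 5.50 CPM in Sham. For miR-199a-5p and miR-199b-5p the groups overlapped. The sum leaves out miR-199a-3p, which shares a row with miR-199b-3p. That row had 8159, 7243 and 5502 CPM in TAC and 7573, 5885 and 6894 CPM in Sham, and it did not pass. All 3 listed epithelial markers fell, with sums of 1.49 to 7.02 CPM in TAC and 19.0 to 65.6 CPM in Sham, where 15.8% of all tested miRNAs fell. These markers rest on few UMIs. In TAC miR-200a-3p had 9, 4 and 3 UMIs, miR-200b-3p 9, 4 and 0 and miR-429-3p 0, 3 and 0. In Sham 3 they had 9, 7 and 11 UMIs. The liver marker miR-122-5p rose, with 72.5 to 1989 CPM in TAC and 2.81 to 16.4 CPM in Sham. The part of these cell types in the lower share of the chromosome 8 guides was not tested.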

How the data were processed

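The authors deposited raw counts, both UMIs and reads for each library. The tables used here cover miRNAs, fragments of mRNAs, other RNAs, and sequences that mapped but had no annotation, per the file headers. Libraries were made with the QIAseq miRNA kit, per the labels' protocols, and the submitters' processing notes name GRCm38 as the genome. No source used here names an aligner or the counting rules. Each column was assigned by the description of its sample; in these descriptions all TAC numbers precede all Sham numbers, so that order and the groups cannot be told apart.

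UMI counts were tested with edgeR 4.0.16 (R 4.3.3). Rows that passed filterByExpr (min.count 10, min.total.count 15) were scaled by TMM, and compared by the quasi-likelihood test, two-sided, with Benjamini-Hochberg values over 322 tested miRNAs and a threshold of 0.05. Each SE is the size of the log2 fold change divided by the square root of F. The fit was tested on simulated data. Alternatives were RLE, upper-quartile or no scaling factors, no filter or at least 50 UMIs in 3 libraries, DESeq2 1.42.0, limma-voom (limma 3.58.1), read counts, the replicate block, a threshold of 0.1 and leaving out each library. Leaving out both libraries numbered 3 and adding miR-181a-2-3p were chosen after seeing the data. Log2 CPM used a prior count of 2. Listed positions of unannotated sequences were 1 less than RefSeq positions for 15 of 15 sequences checked and are given counted from 1. Shares were compared with exact permutation tests in scipy 1.17.1 and adjusted by Benjamini-Hochberg over the 12 shares tested.

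Libraries with the same number deviated from their group means together (r = 0.33, 0.31 and 0.59 across miRNAs for numbers 1, 2 and 3), so the numbers were read as pairing them, although TAC 1 correlated more with Sham 2 (r = 0.39) and TAC 2 more with Sham 1 (r = 0.34), and the labels do not say what the numbers mark. TAC 3 and Sham 3 stood apart from the others, with r from -0.50 to -0.39 against libraries of other numbers in the opposite group. Deviations from a group mean cancel within the group. These negative values, and the positive ones among numbers 1 and 2, are therefore not independent of the r of 0.59. Within groups, libraries were further apart than sampling noise allows (chi-square per degree of freedom of 53.8 or more). Named miRNAs were all members, the 5 most and 1 least like the summed guides, and list members past the threshold. The members and lists were chosen with earlier results of these data known. tRNA counts were not used.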

Additional observations from a re-analysis of the deposited data

Results flagged for a closer look

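Sequences of the miR-181a-2-3p arm, listed without annotation and so outside the miRNA table, held 5655 UMIs over the 6 libraries, 2879 in TAC and 2776 in Sham. In the same table, 3 sequences of miR-181a-5p and miR-181b-5p that carry U6A, a change inside the seed, held 235 UMIs, 0.434% of the UMIs of these guides, with a range of 0.366 to 0.554% over the libraries. These forms are placed at the chromosome 1 hairpins in the file, and the same guide bases lie in the chromosome 2 hairpins.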

How the results depend on the processing

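Of 116 values for the 7 members under alternatives, 113 kept their direction and their side of the threshold, 2 newly passed (miR-181c-3p with library sizes only, miR-181d-5p without both libraries numbered 3) and 1 reversed (miR-181a-5p, -0.033 with library sizes only). The number of members past the threshold was 0, and 1 with library sizes only, with a threshold of 0.1 and without both libraries numbered 3. It was 0 without any 1 library. The replicate block changed no call of a member. Of all 322 tested miRNAs 71 passed, and 31 of 194 under the stricter filter, which tests fewer miRNAs. With the replicate block 111 passed, and 129 without both libraries numbered 3. When 1 library was left out 17 to 73 passed (17 without Sham 1, 29 without Sham 2, 32 without TAC 1 and 24 without TAC 2). The cause of these shifts was not tested. Library sizes only gave 10 higher and 68 lower calls, TMM factors 20 and 51. The difference in the share of the chromosome 2 locus was 1.21 percentage points, 0.409 to 2.34 when 1 library was left out, and -0.411 over rows of the miRNA table only, which leave out miR-181a-2-3p. The difference in the share of 3p arms ranged from -1.49 to -0.300 over its alternatives. The no-filter setting moved no call of a member. Depth limits the rare members: miR-181c-3p and miR-181b-2-3p have 5 to 36 UMIs per library.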
